A study of Mus musculus with 6 samples.

Results

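The genes described here are 45 genes of autophagy and of the lysosome, read in regulatory T cells (Treg) with and without HDAC10. They were chosen by name, with earlier results of these data known. A gene was read from a probe set, a group of short oligonucleotides on the array, that is paired with exactly 1 gene symbol, and where a gene had several the one with the highest mean signal was used. All 45 were measured, out of 22180 genes that could be read in this way. They comprise 27 genes of the autophagy core, 10 lysosomal enzymes, 4 lysosomal membrane proteins, 2 lumenal lipid-handling proteins and 2 transcription factors of lysosomal genes. Of the 45, 43 had 1 such probe set, and Gabarap and Npc1 had more.

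Mouse Gene 2.0 ST arrays were run on CD4+CD25+ Treg that were pulled out with magnetic beads from the spleen and peripheral lymph nodes of female C57BL/6 mice aged 8 to 12 weeks, with 3 independent samples of HDAC10-/- Treg and 3 of wild type (WT, HDAC10+/+) Treg. The HDAC10-/- mice carry a germ-line Hdac10 deletion on a B6N background, which affects every cell, so the arrays do not separate what HDAC10 does inside Treg from what its loss does elsewhere in the animal, and the study describes the Treg as naive, with no drug or stimulus named. The deposited values are log2 signals, with array medians of 6.18 to 6.24, and any pair of arrays correlated at 0.995 to 0.997 (Pearson, across probe sets). Hdac10 itself had a signal of 6.11, 6.22 and 6.22 in HDAC10-/- and of 9.03, 9.30 and 8.95 in WT (7.52-fold lower, adjusted p = 1.4e-04 in limma), so each array carried the Hdac10 level of its label.

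Autophagy encloses cytoplasm in a double membrane, the autophagosome, which then fuses with a lysosome whose acid hydrolases break the content down. The ULK kinase complex starts the process, a class III phosphatidylinositol 3-kinase complex marks the growing membrane, and a conjugation machinery attaches proteins of the ATG8 family (LC3 and GABARAP) to it, where cargo receptors dock. The transcription factors TFEB and TFE3 turn on many lysosomal and autophagy genes, and mouse Treg are known to need Atg5 and Atg7 for their survival and stability. HDAC10 has been linked to autophagy and lysosomes in human neuroblastoma cell lines.

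TFEB and TFE3 bind a short palindrome, CACGTG, often inside the longer TCACGTGA of the lysosomal gene network. RefSeq promoters (build GRCm38.p6, 300 bases from 250 before to 50 after the gene start) were at hand for 36 of the 45 genes. Each motif reads the same on both strands, and the longer contains the shorter. The motif CACGTG stood in the promoters of 11 of the 36 genes (30.6%) against 8.09% of 27025 genes, and TCACGTGA in 4 (11.1%) against 1.12%. By group, 5 of 8 lysosomal enzymes and 4 of 21 autophagy core genes with a promoter held CACGTG. The stretches below are the parts of these promoters around the motif for the 4 genes with TCACGTGA, for Lamp1 with its 4 copies of CACGTG, and for Lgmn, a gene whose values are given below. They run 5′ to 3′ on the strand of the gene and end before its start, and capitals mark the motif.
Atg3, chr16:45158715-45158784, plus strand: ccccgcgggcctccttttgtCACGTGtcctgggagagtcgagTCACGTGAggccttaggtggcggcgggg
Ctsa, chr2:164833740-164833772, plus strand: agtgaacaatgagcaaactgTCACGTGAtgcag
Ctsd, chr7:142387899-142387946, minus strand: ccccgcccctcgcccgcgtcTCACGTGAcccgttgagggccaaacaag
Mcoln1, chr8:3500428-3500500, plus strand: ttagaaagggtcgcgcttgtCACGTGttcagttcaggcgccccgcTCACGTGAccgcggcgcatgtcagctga
Lamp1, chr8:13159080-13159160, plus strand: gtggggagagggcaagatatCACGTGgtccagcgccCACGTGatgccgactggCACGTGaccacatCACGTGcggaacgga
Lgmn, chr12:102439116-102439161, minus strand: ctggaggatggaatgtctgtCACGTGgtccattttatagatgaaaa

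Between the genotypes these genes moved little. In limma, 1 of the 45 passed an adjusted p under 0.1 in either direction, against 2.01% of all 34472 probe sets. This gene was Ctsh, a lysosomal cysteine protease, which rose in HDAC10-/- Treg. None fell, against 0.757% of probe sets called lower. At an unadjusted p under 0.05, 3 genes had a positive difference (7.73% of probe sets) and 3 a negative one (6.95%). The median difference, HDAC10-/- minus WT, was -0.05 on the log2 scale over the 45 genes and -0.0033 over the 22180 genes. Of the 45 differences, 14 lay above and 31 below 0, from -0.34 (Gabarapl1) to 0.51 (Ctsh), and of the 22180 genes 11163 lay below 0. The scaling moved this tally, to 25 of the 45 below 0 (median -0.01) after quantile normalization and to 37 (median -0.08) after median centring of the arrays. The tally over the 22180 genes moved too, to 11475 below 0 (median -0.005) and to 13671 (median -0.037) in the same order. The 95% confidence interval of the difference lay within 1.25-fold either way for 37 of the 45 genes and within 1.5-fold for 44, the exception being Ctsh. Over all 22180 genes, 14590 had an interval within 1.25-fold and 21270 within 1.5-fold. The arrays hold RNA of whole cell samples, so a lower signal from fewer cells of a type and one from less RNA per cell cannot be told apart.

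**Figure D1:**
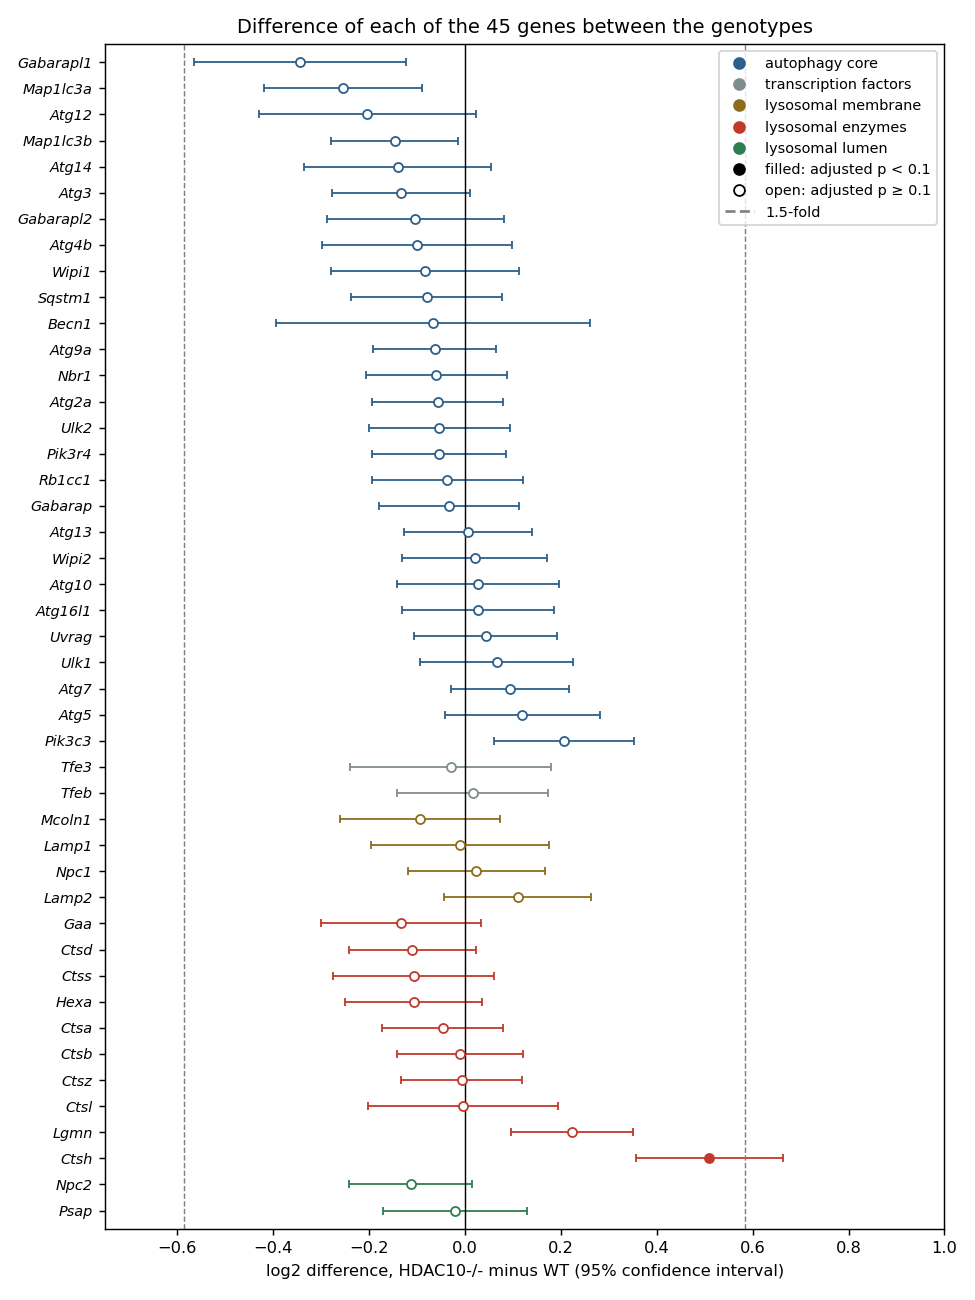
Difference between the genotypes for each of the 45 genes, on the x axis as the log2 difference HDAC10-/- minus WT (3 arrays each) with the 95% confidence interval of the limma fit as a bar, grouped and coloured by gene class. Ctsh, at 0.51, has the 1 filled point (adjusted p under 0.1), and its interval is the only one to cross the 1.5-fold line.

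The lysosomal enzymes held the largest difference among the 45 genes. Ctsh encodes cathepsin H, a lysosomal aminopeptidase. Its signal was 7.87, 7.79 and 7.89 in HDAC10-/- and 7.33, 7.42 and 7.27 in WT, a mean of 7.85 ± 0.053 against 7.34 ± 0.075 (SD, n = 3 each). The lowest HDAC10-/- array lay above the highest WT array. The difference was 0.51 ± 0.065 (log2, standard error), or 1.42-fold, with a 95% confidence interval of 0.36 to 0.66 and an adjusted p of 0.0237 in limma. It stayed under the 1.5-fold minimum of the methods, which together with the adjusted p was passed upward by 0.424% of probe sets. The call was lost without HDAC10-/- replicate 3 (adjusted p = 0.106) and without WT replicate 1 (adjusted p = 0.109), and with the unmoderated per-gene test of the methods (adjusted p = 0.113).

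Lgmn encodes legumain, an asparaginyl endopeptidase that also trims other lysosomal proteases. Its signal was 8.98, 8.93 and 8.96 in HDAC10-/- and 8.72, 8.76 and 8.72 in WT. The groups did not overlap, and the spread within each was narrow. The difference was 0.22 ± 0.054 (1.17-fold), with an adjusted p of 0.132 in limma, so it was not called. It was called with an intensity trend and the robust option, with array weights and with quantile normalization, where 3, 2 and 2 of the 45 genes were higher. In limma it was not called with median centring (adjusted p = 0.181) or with any array left out (0.136 to 0.352).

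The other 8 lysosomal enzymes all had a difference below 0, with a median of -0.08, although after quantile normalization 5 of all 10 enzymes were below 0. None was called. Ctsd, the aspartic protease cathepsin D, had a signal of 11.00, 11.05 and 11.10 in HDAC10-/- and of 11.17, 11.16 and 11.15 in WT (difference -0.11, adjusted p = 0.428 in limma). Ctss, cathepsin S, which cleaves the invariant chain in antigen-presenting cells, had 10.68, 10.49 and 10.51 in HDAC10-/- against 10.72, 10.65 and 10.63 in WT (-0.11, adjusted p = 0.550). The Ctsd arrays did not overlap between the genotypes, and the Ctss arrays did. Both genes were named after their values were seen, because they lie opposite Ctsh within the proteases. Hexa, a hexosaminidase subunit that degrades gangliosides, had a signal of 9.30, 9.19 and 9.30 in HDAC10-/- and of 9.40, 9.33 and 9.38 in WT (-0.11, adjusted p = 0.475). Gaa, the acid glucosidase of glycogen, had 8.32, 8.34 and 8.26 in HDAC10-/- and 8.55, 8.34 and 8.43 in WT (-0.13, adjusted p = 0.446). The groups were separate for Hexa and touched at 8.34 for Gaa. Ctsb, cathepsin B and the brightest probe set of the proteases, differed by -0.01, with an interval of -0.14 to 0.12. Ctsa, Ctsl and Ctsz lay between -0.05 and -0.0033.

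**Figure D2:**
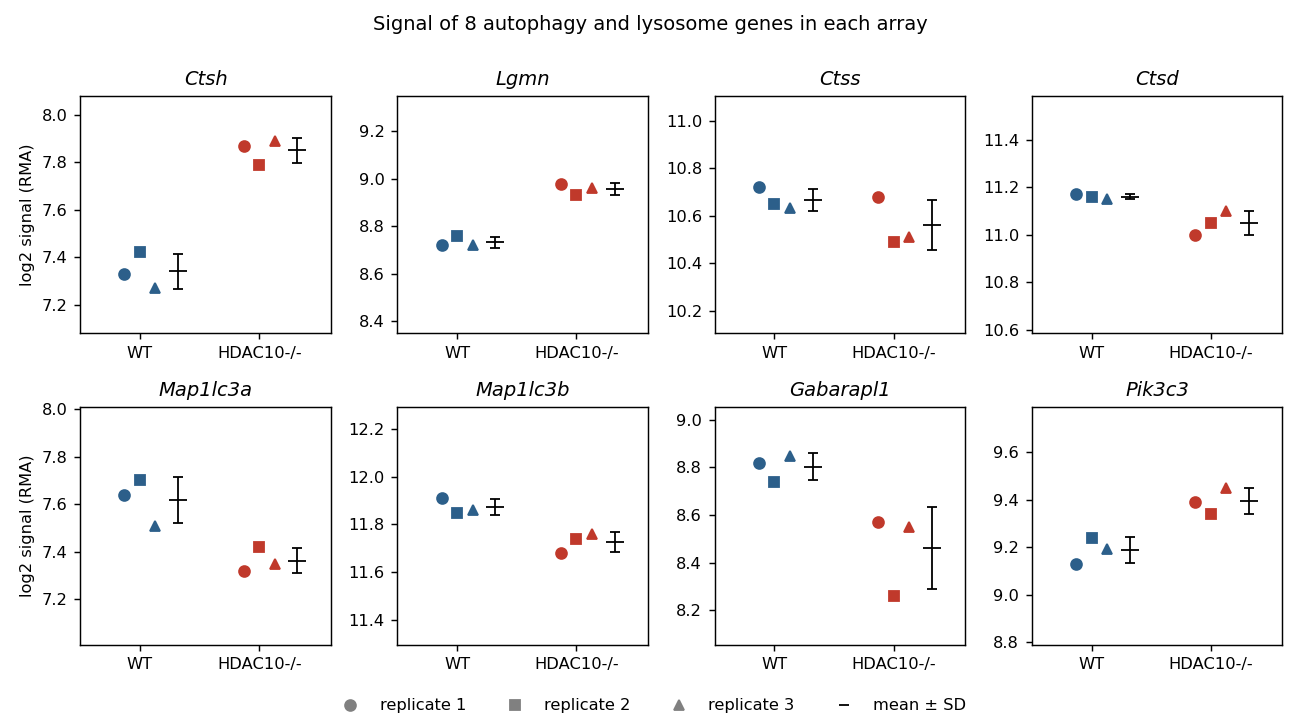
Log2 signal (RMA, y axis, each panel spanning its own range of 1 unit) of 8 genes in each of the 3 WT and 3 HDAC10-/- arrays, with the mean and SD of each group beside the points. Ctsh, Lgmn and Pik3c3 are above WT in all 3 HDAC10-/- arrays, Ctsd, Map1lc3a, Map1lc3b and Gabarapl1 below, and Ctss overlaps.

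Markers of other blood cells were also higher in the HDAC10-/- arrays. Of 21 measured macrophage and monocyte markers, 14 were called higher, against 1.25% of probe sets, and 0 lower, against 0.757%. All 21 differences were above 0 (median 0.68). Csf1r, the receptor that macrophages need for survival, had 7.58, 7.35 and 7.46 in HDAC10-/- and 6.54, 6.34 and 6.44 in WT (1.02, adjusted p = 0.00586 in limma). The mean signal over the 21 markers was 6.71 to 6.89 in HDAC10-/- and 5.98 to 6.13 in WT. In this list Cd68 (0.28, adjusted p = 0.194) and Cybb (0.10, adjusted p = 0.631) were bright and not called. Fcgr1, C1qa, Cd163, Ms4a7 and Aif1 were not called either. Among the dim ones were Ms4a7, Cd5l and Cd14, whose mean signals of 4.61, 4.88 and 4.96 lay below the median probe set at 6.21. Cd5l and Cd14 were called. So were Adgre1, Mrc1, C1qc, Clec4a3, Spic and Adgre4, whose mean signals of 5.64 to 6.13 also lay below that median. No array value is a true zero, so none of the markers can be said to be absent.

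The neutrophil list had 8 of 14 genes higher (array means 6.17 to 6.46 against 5.55 to 5.66) and the B cell list 5 of 9 (7.64 to 7.87 against 7.09 to 7.26). The dendritic cell list had 3 of 8 higher (7.06 to 7.22 against 6.76 to 6.81) and the CD8 T and NK cell list 4 of 7 (8.23 to 8.25 against 7.93 to 7.98). The share of all probe sets called higher was 1.25%. In the CD8 T and NK cell list 2 differences lay below 0, the lowest at -0.23. The neutrophil and dendritic cell lists had 1 each below 0. None of the 5 plasma cell markers was called. Leaving out 1 array at a time, 6 to 11 of the macrophage markers were called higher. The part of these cells in the Ctsh and Lgmn values was not tested. The T cell and Treg list, which checks the label of the samples, had array means of 11.80 to 11.85 in HDAC10-/- and 11.88 to 11.90 in WT, with 0 of 12 called. Of its 12 differences, 3 lay above and 9 below 0. In this list 5 genes had all HDAC10-/- arrays below WT, against 10.9% of probe sets. Foxp3, the transcription factor that defines Treg, overlapped between the genotypes. It was at 12.66, 12.53 and 12.53 in HDAC10-/- and at 12.50, 12.58 and 12.54 in WT.

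Among the autophagy genes, the ATG8 family lay lowest against WT. All 5 members had a difference below 0, with a median of -0.15, and none was called. After quantile normalization 4 of the 5 were below 0, Gabarap being the exception. The mean signal of the family was 9.63 to 9.73 in the HDAC10-/- arrays and 9.84 to 9.86 in the WT arrays. The T cell and Treg markers differed in the same direction, by -0.07 on the mean of the arrays against -0.18 for the family, and what links these 2 shifts was not tested.

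Gabarapl1, a GABARAP relative, had a signal of 8.57, 8.26 and 8.55 in HDAC10-/- and of 8.82, 8.74 and 8.85 in WT. The groups were apart, with HDAC10-/- replicate 2 the lowest. The difference was -0.34 ± 0.094 (1.27-fold) with an interval of -0.56 to -0.12 and an adjusted p of 0.172 in limma. Map1lc3a, 1 of the LC3 genes, had 7.32, 7.42 and 7.35 in HDAC10-/- against 7.64, 7.70 and 7.51 in WT (-0.25 ± 0.070, adjusted p = 0.175). Map1lc3b, the LC3 form most used to trace autophagosomes, had 11.68, 11.74 and 11.76 against 11.91, 11.85 and 11.86 (-0.15 ± 0.057, adjusted p = 0.299). It was named after its values were seen, as the third of the 3 ATG8 genes whose groups did not overlap. Gabarapl2 differed by -0.10 with overlapping groups.

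Gabarap was read by a pair of probe sets that differed in size. The brighter had 12.19, 12.06 and 12.05 in HDAC10-/- and 12.14, 12.11 and 12.15 in WT (-0.03 ± 0.062, adjusted p = 0.853 in limma). The dimmer had 9.98, 9.52 and 9.58 against 10.05, 10.09 and 10.04 (-0.37 ± 0.12, adjusted p = 0.230). Both thus lay below 0, and only the dimmer separated the groups, with HDAC10-/- replicate 1 close to WT. The pair for Npc1 differed by 0.02 and 0.07. The cargo receptors that bind LC3 lay close to WT. Sqstm1 (p62) differed by -0.08, with an interval of -0.24 to 0.08, and Nbr1 by -0.06, with an interval of -0.21 to 0.09.

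The class III phosphatidylinositol 3-kinase complex split. Pik3c3 encodes its catalytic subunit, and its signal was 9.39, 9.34 and 9.45 in HDAC10-/- and 9.13, 9.24 and 9.19 in WT. All HDAC10-/- arrays were above all WT arrays. The difference was 0.21 ± 0.062 (1.15-fold), with an adjusted p of 0.197 in limma. It was called with the intensity trend and robust option (adjusted p = 0.0790) and among brighter probe sets alone (adjusted p = 0.0696). In limma with any array left out it was not called (adjusted p = 0.195 to 0.423). Atg14, the subunit that sends the complex to the autophagosome site, had 7.67, 7.94 and 7.90 against 8.02, 7.95 and 7.96 (-0.14, adjusted p = 0.491). Its groups were apart by 0.01 on the log2 scale, and without HDAC10-/- replicate 1 the difference was -0.06. Uvrag, the subunit of a second form of the complex, differed by 0.04 with overlapping groups.

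Becn1, the scaffold of the complex, had the widest spread of the 45 genes. Its signal was 9.17, 9.62 and 9.73 in HDAC10-/- and 9.59, 9.52 and 9.61 in WT, so that HDAC10-/- replicate 1 lay below all WT arrays and the other two above. The difference was -0.07, with an interval of -0.39 to 0.26, and 0.10 without that array (adjusted p = 0.869 and 0.456 in limma). It was named after its values were seen, for that spread.

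In the ULK complex none of 4 genes was called. Ulk1 and Ulk2, the kinases, differed by 0.07 and -0.05, and Atg13, their adaptor, by 0.0067. Of the ATG9, ATG2 and WIPI proteins, which supply lipid to the growing membrane, none of 4 was called either. Atg9a, the membrane scramblase, had 8.53, 8.45 and 8.48 in HDAC10-/- and 8.56, 8.54 and 8.55 in WT (-0.06, adjusted p = 0.653 in limma), so that its groups were apart by 0.01. Atg2a, a lipid transfer protein, differed by -0.06 and Wipi1, a phosphoinositide reader, by -0.08. Wipi1, at a mean of 6.09, was the 1 gene of the 45 below the median probe set.

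The conjugation machinery had genes on both sides of 0, with a median of 0.03 over 7 genes and none called. Atg3, the enzyme that hands ATG8 proteins to lipid, had 10.04, 9.98 and 10.11 in HDAC10-/- and 10.14, 10.18 and 10.21 in WT (-0.13 ± 0.061, adjusted p = 0.372 in limma). Atg12, a ubiquitin-like protein joined to ATG5, had 8.85, 9.12 and 9.20 against 9.31, 9.24 and 9.23 (-0.20 ± 0.096, adjusted p = 0.387). All HDAC10-/- arrays were below WT for both genes, and for Atg12 the difference was -0.10 without HDAC10-/- replicate 1. Atg7, the activating enzyme, went the other way, at 8.84, 8.85 and 8.84 in HDAC10-/- and 8.74, 8.77 and 8.74 in WT (0.09 ± 0.053, adjusted p = 0.469). Atg5 differed by 0.12 with overlapping groups. Atg5 and Atg7 were named after their values were seen, because Treg are known to need both.

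The transcription factors that drive lysosomal genes did not pass the test. Tfeb had 6.56, 6.69 and 6.75 in HDAC10-/- and 6.64, 6.64 and 6.67 in WT (0.02, interval -0.14 to 0.17). Tfe3 had 9.42, 9.14 and 9.13 in HDAC10-/- and 9.30, 9.25 and 9.23 in WT (-0.03, interval -0.24 to 0.18). In both genes the HDAC10-/- arrays lay on either side of the WT arrays. The 11 genes with CACGTG in the promoter had a median difference of -0.05 and ranged from -0.14 to 0.22, with 3 above 0, and the 25 with a promoter and no CACGTG had a median of -0.05. Ctsh, the called gene, is in neither set, as no promoter was at hand for it. The same holds for Map1lc3a, Pik3c3 and Atg12. Mcoln1, a calcium channel of the lysosome, differed by -0.09 and Lamp1, a major lysosomal membrane protein, by -0.01, with an interval of -0.20 to 0.18. Lamp2, its partner in the membrane, was at 9.17, 9.07 and 9.02 in HDAC10-/- and 9.02, 8.92 and 8.99 in WT (0.11, adjusted p = 0.492 in limma), with groups that touched at 9.02. Npc2, which carries cholesterol to NPC1, had 11.00, 11.05 and 11.07 in HDAC10-/- and 11.17, 11.14 and 11.15 in WT (-0.11, adjusted p = 0.397). Psap, the precursor of the saposins that present lipids to hydrolases, differed by -0.02, with an interval of -0.17 to 0.13.

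Across the 45 genes, 4 had all HDAC10-/- arrays above all WT arrays, against 9.89% of probe sets, and 10 had them all below, against 10.9%. The 4 were Ctsh, Lgmn, Pik3c3 and Atg7. The 10 were Map1lc3a, Map1lc3b, Gabarapl1, Atg14, Atg9a, Atg3, Atg12, Ctsd, Hexa and Npc2, of which 7 are autophagy core genes. These counts describe the list and were not tested.

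Set side by side, the autophagy core and the lysosomal enzymes had close medians, at -0.06 over 27 genes and -0.03 over 10. The mean signal of the core was 9.25, 9.31 and 9.33 in HDAC10-/- and 9.34, 9.35 and 9.35 in WT. For the enzymes it was 9.70, 9.69 and 9.70 in HDAC10-/- and 9.70, 9.67 and 9.65 in WT. The core was thus lower in every HDAC10-/- array than in any WT array, while the enzymes overlapped. Ctsh and Lgmn pulled the mean of the enzymes up. Without Ctsh and Lgmn it was 10.02 in each HDAC10-/- array and 10.07 to 10.11 in WT. These 2 were left out after their values were seen, as the only enzymes with a difference above 0. That choice by itself puts the mean of the rest below WT. The median difference of the enzymes minus that of the core was 0.03. It turned to -0.02 without HDAC10-/- replicate 1 and was 0.0067 without WT replicate 3, so these data give no settled order of the 2 medians.

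**Figure D3:**
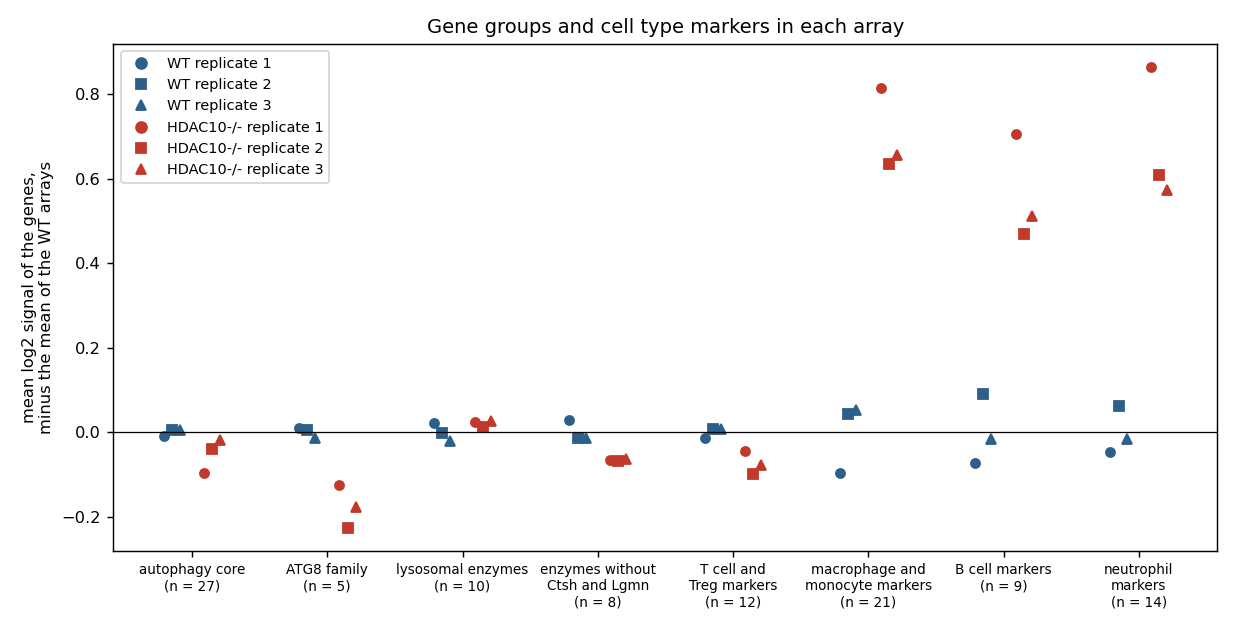
Mean log2 signal of each gene group in each array, given on the y axis as the difference from the mean of the 3 WT arrays, for groups of the 45 genes and for markers of T cells, macrophages, B cells and neutrophils. The autophagy core and the ATG8 family lie below WT in all 3 HDAC10-/- arrays (for the ATG8 family 9.63 to 9.73 against 9.84 to 9.86). So do the enzymes without Ctsh and Lgmn, a group left by taking out the 2 enzymes with a difference above 0. The macrophage markers (6.71 to 6.89 against 5.98 to 6.13), B cell markers and neutrophil markers lie above WT.

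The genes also varied more among HDAC10-/- samples than among WT samples. The SD was larger in HDAC10-/- for 36 of the 45 genes (80.0%), against 59.6% of all 22180 genes. Its median was 0.0737 in HDAC10-/- and 0.0361 in WT. HDAC10-/- replicate 1 was the array farthest from the other two of its group for 27 of the 45 (60.0%), against 43.8% of all genes, and for 17 of 27 autophagy core genes but 3 of 10 enzymes. Lamp1 had 11.13 in that array against 10.89 in each of the other two, and 11.00, 10.97 and 10.97 in WT. Sqstm1 had 11.04 against 11.19 and 11.21, and 11.25, 11.19 and 11.24 in WT. The array was therefore high for some genes, such as Lamp1 and Tfe3, and low for others, such as Sqstm1, Becn1 and Atg12. Without it, the median difference of the core was -0.02, with 19 of 27 genes below 0, and that of the ATG8 family was -0.18, with all 5 below 0. The macrophage, neutrophil and B cell marker means were also highest in this array among the 3 of HDAC10-/-, at 6.89, 6.46 and 7.87, and their part in the spread was not tested.

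Beyond the 45 genes, 118 of 128 further genes of autophagy and the lysosome could be read, in 5 lists. Of these, 2 were higher, against 1.25% of probe sets, and 1 was lower, against 0.757%. The median difference was -0.04, with 34 above and 82 below 0. At an unadjusted p under 0.05 in limma, 9 were higher (7.73% of probe sets) and 22 lower (6.95%). All HDAC10-/- arrays lay above WT for 13, against 9.89% of probe sets, and below for 28, against 10.9%. These counts describe the lists and were not tested. Leaving out 1 array at a time gave 0 to 3 higher and 0 to 4 lower genes, with the 4 found without HDAC10-/- replicate 1. Slc11a1, a metal transporter of the phagosome known from macrophages, had 7.32, 6.98 and 7.10 in HDAC10-/- and 6.45, 6.58 and 6.36 in WT (0.67 ± 0.10, 1.59-fold, adjusted p = 0.0394 in limma). Atg4c, a protease that primes ATG8 proteins, had 5.94, 6.11 and 5.97 against 5.66, 5.59 and 5.61 (0.39 ± 0.067, adjusted p = 0.0568). Naglu, a lysosomal hydrolase of heparan sulfate, fell, at 7.92, 7.98 and 7.99 against 8.33, 8.31 and 8.28 (-0.34 ± 0.055, adjusted p = 0.0462). The groups were apart for each of these 3 genes. The macrophage markers given above rose in the same arrays as Slc11a1, and their part in its value was not tested.

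By list, 27 other autophagy genes had a median of -0.03, 29 other hydrolases and cofactors -0.07, and 20 other lysosomal membrane proteins -0.04. Of the 29 hydrolases and cofactors, 4 had all HDAC10-/- arrays above WT and 10 all below, against 9.89% and 10.9% of probe sets. For the other autophagy genes these counts were 3 and 6, and for the membrane proteins 3 and 5. The 17 subunits and partners of the vacuolar ATPase, the pump that acidifies the lysosome, had a median of -0.02 and none was called. Among them 0 had all HDAC10-/- arrays above WT and 2 all below. The smallest p-values there belonged to Atp6v0d1 (10.12, 9.87 and 9.94 in HDAC10-/- against 10.24, 10.20 and 10.17 in WT, -0.23, adjusted p = 0.250 in limma) and to Atp6v0d2 (-0.25, adjusted p = 0.276). None of 25 genes of TORC1 and lysosomal nutrient sensing, which restrain autophagy when amino acids are plentiful, was called, with a median of -0.02. Nprl2, part of a complex that holds TORC1 back, had 9.22, 9.12 and 9.11 against 9.42, 9.43 and 9.40 (-0.27, adjusted p = 0.108). Mlst8, a subunit of TORC1, had 9.09, 9.14 and 9.04 against 9.34, 9.30 and 9.30 (-0.22, adjusted p = 0.149). The groups were apart for Atp6v0d1, Nprl2 and Mlst8 and overlapped for Atp6v0d2. Other TORC1 genes lay above WT in all arrays, such as the kinase Mtor (9.35, 9.42 and 9.41 against 9.10, 9.22 and 9.18, 0.23, adjusted p = 0.162) and its partner Rptor (0.12, adjusted p = 0.372). Of the 25 genes, 3 had all HDAC10-/- arrays above WT, against 9.89% of probe sets, and 5 all below, against 10.9%. The 3 were Mtor, Rptor and Depdc5 (0.07, adjusted p = 0.600 in limma). Nprl3 differed by -0.02 with overlapping groups.

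**Figure D4:**
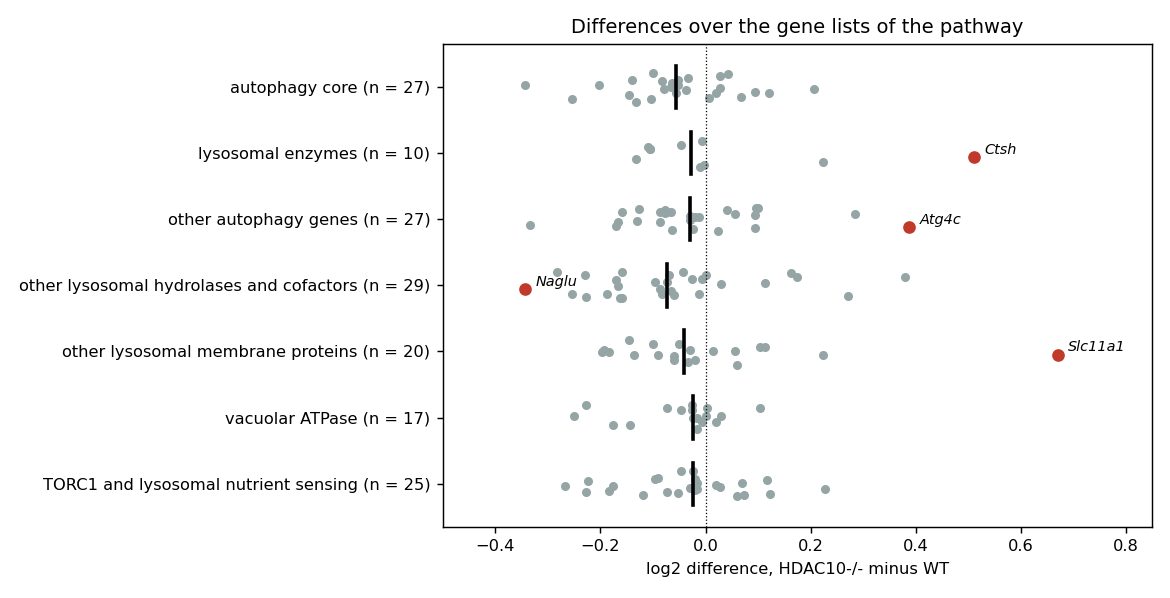
Log2 difference, HDAC10-/- minus WT (x axis), of each gene in the autophagy core, the lysosomal enzymes and 5 further lists, with 1 point per gene and a bar at the median of each list. The 4 red points mark the genes with an adjusted p under 0.1, of which Ctsh, Atg4c and Slc11a1 are higher and Naglu lower, and all 7 medians lie between -0.07 and -0.02.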

How the data were processed

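CD4+CD25+ Treg of 3 HDAC10-/- and 3 WT samples were measured on 1 array each. With Transcriptome Analysis Console 4.0 the authors applied robust multiarray average (RMA), and the deposited table gives log2 values, rounded to 2 decimals, for 34472 probe sets. Of these, 586 repeat the values of another. The genome build used for these values is not given in the sources used here. The values were used as they stand. HDAC10-/- and WT were compared with limma 3.58.1 in R 4.3.3, two-sided, without an intensity trend or the robust option (prior degrees of freedom 3.23). Benjamini-Hochberg adjustment covered every probe set, and a gene was called at an adjusted p under 0.1. The methods of the study add a 1.5-fold minimum and use a t-test for each gene. Arrays have no read depth, and with 3 per genotype an exact permutation of the arrays cannot give a p below 0.1.

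The genes, gene lists and the naming rule were chosen with earlier results of these data known. The rule named called genes, the 2 genes with the smallest p and the brightest gene of each role, genes with groups apart and a difference of at least 0.2, and, of each further list, the called genes or the 2 with the smallest p. Genes outside the rule were named after their values were seen. This is marked in the text or, for Gabarapl2, Ctsa, Ctsl, Ctsz, Npc1, Mtor, Rptor, Depdc5, Nprl3 and the cell type markers, here. In a simulation of 3 arrays per genotype over 34472 probe sets, true changes were set only in probe sets above the median signal. No simulated array stood apart from its group. There limma found 72 of 100 true changes of 1.5-fold and called 15 unchanged probe sets.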

Additional observations from a re-analysis of the deposited data

How the results depend on the processing

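The median difference of the autophagy core (-0.057) lay between -0.09 with median centring and -0.022 without HDAC10-/- replicate 1. That of the lysosomal enzymes (-0.028) lay between -0.062 with median centring and 0.0051 with quantile normalization, so it changed sign. The enzymes minus the core (0.028) changed sign to -0.021 without HDAC10-/- replicate 1 and was 0.0067 without WT replicate 3. For comparison, the median SD of a core gene between replicates was 0.075 in HDAC10-/- and 0.042 in WT. That of an enzyme was 0.046 in HDAC10-/- and 0.036 in WT. The 1 gene called higher among the 45 became 3 with an intensity trend and the robust option and 3 among brighter probe sets alone (Ctsh, Lgmn and Pik3c3 in both), 3 at an unadjusted p under 0.05, 2 with array weights, 2 with quantile normalization and 0 with the 1.5-fold minimum, and 0 to 1 when an array was left out. The methods' t-test called 1, which was Lgmn (adjusted p = 0.0892) and not Ctsh (0.113). The adjusted p of Ctsh ranged from 0.00585 to 0.122 over the alternatives. The 0 genes called lower became 2 with the trend and robust option (Map1lc3b and Gabarapl1), 2 among brighter probe sets (Map1lc3a and Gabarapl1) and 3 at an unadjusted p under 0.05, and stayed 0 when any array was left out. Of all probe sets, 692 were called, against 181 with the methods' t-test, 1756 with the trend and robust option, 1332 with array weights, 2000 among brighter probe sets, 305 at an adjusted p under 0.05, 5061 at an unadjusted p under 0.05, 236 with the 1.5-fold minimum, and 176 to 1085 with an array left out, the highest without HDAC10-/- replicate 1. The cause of these changes was not tested.

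With the replicate number as a replicate block, 205 probe sets and 0 of the 45 genes were called, with Ctsh at an adjusted p of 0.122. The deviations of same-numbered arrays correlated at -0.0032, 0.00063 and -0.024, and those of differently numbered arrays at -0.035 to 0.042. With all of them near 0 and 3 arrays per genotype, this check cannot tell whether the samples were paired.

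Differences near 0, none of them called, changed sign, and the cause was not tested. With quantile normalization they were 0.011 for Gabarap, -0.01 for Tfeb, 0.0081 for Tfe3, 0.017 for Lamp1, 0.032 for Ctsb, 0.013 for Ctsl, 0.02 for Ctsz and 0.029 for Psap. With median centring they were -0.027 for Atg13, -0.017 for Tfeb, -0.013 for Wipi2, -0.0067 for Atg10 and Atg16l1 and -0.01 for Npc1, and with array weights -0.0072 for Atg13 and 0.0015 for Psap. Array weights and each array left out in turn were followed for the differences of the genes of the naming rule alone. With an array left out these ranged from -0.02 to 0.022 for Atg13, -0.025 to 0.07 for Tfeb, -0.125 to 0.02 for Tfe3, -0.09 to 0.03 for Lamp1, -0.027 to 0.0083 for Ctsb and -0.05 to 0.025 for Psap. Differences of the other genes were read without HDAC10-/- replicate 1 only. Those that changed sign there were 0.10 for Becn1, 0.072 for Ctsl, -0.025 for Atg10 and 0.0083 for Ctsz. Leaving out arrays for the further lists and for the markers was chosen after seeing the data.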

Other observations

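Outside these lists, 11 further cathepsin genes and 22 cystatin genes, which encode cathepsin inhibitors, could be read. None of the cathepsins was called, with differences from -0.43 to 0.29. The lowest was Ctse, an aspartic protease, with an adjusted p of 0.233 in limma. Of the cystatins, 1 was called lower, Cst7 (-0.30 ± 0.054, adjusted p = 0.0645), and 0 higher, where 0.757% of all probe sets were called lower. Cst3, which encodes cystatin C, differed by 0.13 (adjusted p = 0.421). These families were looked up after the values of Ctsh and Lgmn were seen. Only 1 of the 11 cathepsins and 3 of the 22 cystatins had a mean signal above the median probe set.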
